A study of Mus musculus with 8 samples.

Results

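Pax7_48 was compared with Pax7_GM across all 5457 genes of the deposited table, which is 5457 of 5457 genes in all, in 4 of the 8 libraries of the series. The comparison follows satellite cells, the resident stem cells of skeletal muscle, from growth medium to differentiation. Both groups hold 2 libraries of cells sorted for red tdTO fluorescence, taken from the hind limb muscle of C57BL/6 adults with the genotype Pax7-CreERT2/+;R26-tdTO+. In these mice the Pax7 locus drives a Cre recombinase that works only in the presence of tamoxifen, and Cre turns on the tdTO reporter, so the label marks cells that expressed Pax7 when tamoxifen was given, and their progeny. Tamoxifen was given every other day, 3 times, 10 days before harvest, and the sorted cells were plated on Matrigel. GM stands for growth medium, which the protocols describe as Ham's F10 with 20% FBS and 2% Primocin. Differentiation is described in high-glucose DMEM with 2% horse serum and bFGF. The labels do not state what 48 counts for Pax7_48 (the Twist2 titles give hours) nor the medium of those libraries, and the protocol text speaks of twist2+ myoblasts. The other 4 libraries, Tw2_GM and Tw2_48, come from Tw2-CreERT2/+;R26-tdTO+ mice under the same protocol text. They enter the pooled error of the test and a single comparison of the changes at the end.

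Satellite cells lie under the basement membrane of the muscle fibre and are marked by the paired-box transcription factor Pax7. Once activated they divide as myoblasts. In differentiation they leave the cell cycle, switch on Myog, a basic helix-loop-helix (bHLH) transcription factor that works with Mef2 proteins, fuse into myotubes, and build sarcomeres from thick myosin filaments, thin actin filaments and Z-discs. Id proteins bind the partners of the myogenic bHLH factors and keep them off DNA. The genes below are ordered along that course, from stem cell genes through the cell cycle to fusion, contraction, metabolism and secreted signals.

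Some of the DNA in question is shown first. Myogenic bHLH proteins bind short sites known as E-boxes, CANNTG, where N is any base, and CAGCTG is a form of that site. The windows below run 5′ to 3′ from 250 bases before to 50 bases after the annotated start of 5 genes described further on (Myog itself, then a filament protein, a calcium pump, an enzyme and a receptor subunit that were called higher), with every CANNTG in capitals. They come from RefSeq on GRCm38.p6 and were chosen after the genes' values were seen.
Myog, the myogenic factor, chr1:134289754-134290053, plus strand: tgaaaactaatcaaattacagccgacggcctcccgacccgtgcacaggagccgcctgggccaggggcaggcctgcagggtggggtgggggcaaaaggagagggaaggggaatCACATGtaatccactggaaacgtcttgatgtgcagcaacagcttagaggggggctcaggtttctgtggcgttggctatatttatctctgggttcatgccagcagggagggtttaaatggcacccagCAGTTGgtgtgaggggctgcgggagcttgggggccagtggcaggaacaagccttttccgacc
Mybph, a thick filament protein, chr1:134193198-134193497, plus strand: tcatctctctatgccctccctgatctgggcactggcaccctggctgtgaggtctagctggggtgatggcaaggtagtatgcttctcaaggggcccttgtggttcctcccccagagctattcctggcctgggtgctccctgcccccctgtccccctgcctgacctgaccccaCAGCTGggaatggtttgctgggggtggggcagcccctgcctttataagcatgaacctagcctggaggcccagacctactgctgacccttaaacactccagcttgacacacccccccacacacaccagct
Atp2a1, the calcium pump, chr7:126463024-126463323, minus strand: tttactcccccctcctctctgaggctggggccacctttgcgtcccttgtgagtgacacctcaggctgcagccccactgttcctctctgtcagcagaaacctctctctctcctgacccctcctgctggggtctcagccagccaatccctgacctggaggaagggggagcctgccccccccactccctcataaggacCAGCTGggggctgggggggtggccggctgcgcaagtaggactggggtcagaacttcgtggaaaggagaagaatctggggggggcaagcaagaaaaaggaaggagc
Pgam2, the muscle phosphoglycerate mutase, chr11:5803747-5804046, minus strand: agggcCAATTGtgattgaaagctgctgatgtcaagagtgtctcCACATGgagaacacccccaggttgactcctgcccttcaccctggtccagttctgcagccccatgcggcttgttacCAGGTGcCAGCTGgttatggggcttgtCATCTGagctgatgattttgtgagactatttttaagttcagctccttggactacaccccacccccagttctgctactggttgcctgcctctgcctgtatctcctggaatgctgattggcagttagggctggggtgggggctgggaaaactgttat
Chrng, the acetylcholine receptor gamma subunit, chr1:87205561-87205860, plus strand: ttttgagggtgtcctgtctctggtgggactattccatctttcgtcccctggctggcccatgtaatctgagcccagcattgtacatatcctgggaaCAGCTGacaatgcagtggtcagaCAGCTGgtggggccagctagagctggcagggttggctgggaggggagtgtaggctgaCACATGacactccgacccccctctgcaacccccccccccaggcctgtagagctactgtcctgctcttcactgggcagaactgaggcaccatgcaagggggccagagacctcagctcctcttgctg
The Myog window holds 2 CANNTG and 0 CAGCTG. Mybph and Atp2a1 have 1 CANNTG each, which is a CAGCTG. Pgam2 has 5 CANNTG, of which 1 is CAGCTG, and Chrng has 3, of which 2 are CAGCTG. Both motifs read the same on either strand, and every CAGCTG is also a CANNTG. Among all 32851 windows of the same length in the RefSeq table, 72.3% hold a CANNTG and 16.3% a CAGCTG, so a match describes the letters and is not a binding site. Too few of the genes that changed most matched a window (75.1% of those called at least 4-fold higher and 77.4% of those called at least 4-fold lower, under the 80% required) for a share over those sets.

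Values are CPM, the reads of a gene scaled to a library of a fixed size. The authors' deposited table gives the mean CPM of each group, and each mean was taken apart into its 2 libraries for 5452 genes. These libraries are called deeper and shallower, since a mean does not carry replicate numbers. Implied sizes were 7.38 and 5.18 M reads in Pax7_GM and 10.6 and 7.64 M in Pax7_48, so 3 reads, the upper limit that a count of 0 allows, come to 0.406 and 0.579 CPM and to 0.282 and 0.393 CPM. That limit covers counting error only. The 2 Pax7_GM libraries correlated at 0.962 and the Pax7_48 libraries at 0.995. Their median absolute log2 ratio was 0.329 in Pax7_GM and 0.113 in Pax7_48. Within Pax7_GM the ratio of deeper to shallower followed the GC content of the transcript (Spearman rho 0.78 across 5432 genes), and within Pax7_48 it did so more weakly and the other way (rho -0.30). The change from Pax7_GM to Pax7_48 had a rank correlation of 0.02 with GC but no even level: over 5 equal groups of genes, from the poorest to the richest in GC, its median was 0.13, -0.27, -0.58, 0.37 and 0.46 on the log2 scale. With GC and length trends removed, 4122 of the 4320 calls made below kept their sign and call. The labels do not say whether libraries came from separate mice or cultures, so p-values measure only the spread between these libraries, which may be technical.

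Every log2 change below is log2 of (Pax7_48 mean + 1) over (Pax7_GM mean + 1), in CPM, and a fold is the same ratio without the log. Standard errors (SE) and Benjamini-Hochberg adjusted p-values are limma's, over all 5452 tested genes, and a gene counts as called at an adjusted p under 0.05. In bulk RNA, more RNA per cell and more cells of a kind cannot be told apart.

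The change was wide. Of 5452 tested genes, 2113 (38.8%) were called higher and 2207 (40.5%) lower in Pax7_48, 79.2% in all, and 1132 were not called. In 4635 genes (85.0%) the 2 libraries of Pax7_48 lay wholly above or wholly below those of Pax7_GM. These shares are the background for every list below. The table holds only genes at least 2-fold from Tw2_GM in some other group, so they do not describe the whole transcriptome. Each list below counts only its listed members, so members that failed this selection are left out. The median log2 change of all listed genes was -0.02, with the 5th percentile at -2.997 and the 95th at 2.73. At least 4-fold changes were seen in 516 genes upward and 638 downward, and at least 16-fold changes in 55 and 104. When the fit held only the 4 Pax7 libraries, 1917 genes were called higher and 2068 lower. Scaling by size factors over the listed genes moved the median of all genes from -0.02 to 0.22, so the direction of changes of about that size depends on the scaling.

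The genes that rose came to hold a large share of the RNA. Genes at least 4-fold higher took 3.42% of the mean CPM of Pax7_GM and 26.8% of that of Pax7_48. Genes at least 4-fold lower went from 9.87% to 1.33%. The 68 listed filament, Z-disc and calcium-coupling genes alone went from 1.66% to 13.7% of the library, 8.25 times as much. CPM is a share, so a rise of this size lowers the CPM of all other genes at equal RNA.

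**Figure D1:**
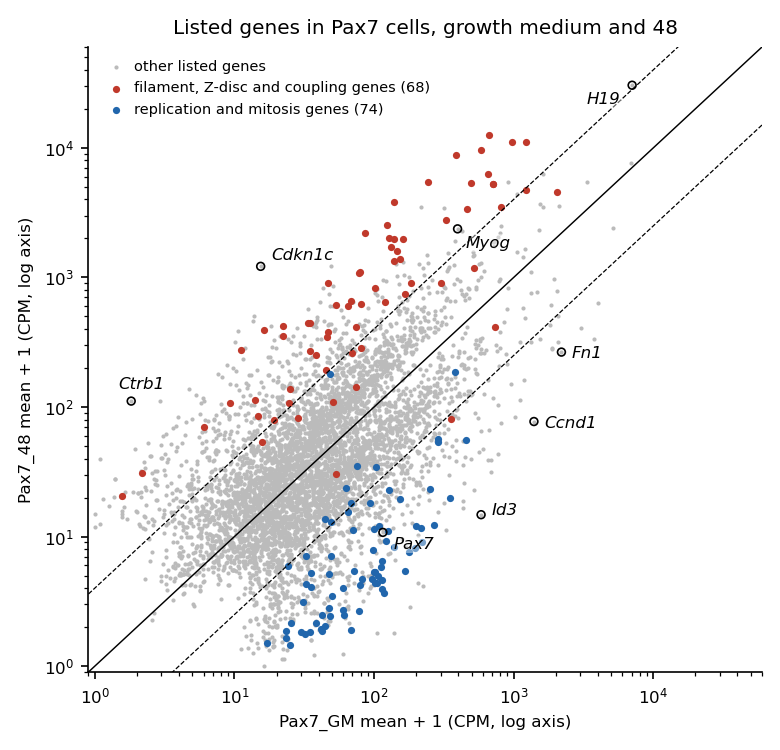
Mean CPM + 1 of each of the 5457 listed genes in Pax7_GM (horizontal, log axis) and Pax7_48 (vertical, log axis). The solid line marks equal means and the dashed lines 4-fold changes of mean + 1. The 68 filament, Z-disc and coupling genes in red lie mostly above the upper dashed line, and the 74 replication and mitosis genes in blue mostly below the lower dashed line. Circles mark 8 named genes.

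Pax7 itself, at chr4:139737059-139833530 (GRCm38.p6), stood at 117 and 112 CPM in the Pax7_GM libraries and at 9.58 and 9.95 CPM in Pax7_48. The groups lay far apart and the libraries of each close together, with a log2 change of -3.42 (SE 0.12, adjusted p 2.02e-07). In Tw2 cells its log2 change was -3.02. The label records Pax7 expression when tamoxifen was given, so the level of Pax7 RNA in culture does not check it. Of the other satellite cell and myoblast markers, Cdh15, Itga7, Vcam1 and Des were listed and present in all 4 libraries, while Myf5 and Myod1 were not analysed here.

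The satellite cell list did not move as a block. Of 25 tested members, 13 were called lower, 7 higher and 5 not at all, with a median of -0.88 against -0.02 over all genes. The largest falls after Pax7 were in surface and signalling proteins that satellite cells use to sense their niche. Vcam1, an adhesion molecule, was at 101 and 121 CPM in Pax7_GM and at 12.1 and 10.6 CPM in Pax7_48 (log2 change -3.18). Sdc3, a heparan sulfate proteoglycan, fell from 408 and 357 CPM to 36.5 and 38.1 CPM. Met, the receptor for hepatocyte growth factor, fell from 88.9 and 124 CPM to 13.6 and 12.6 CPM. Jag1, a ligand of Notch receptors, went from 21.9 and 27.2 CPM to 2.16 and 2.62 CPM. All 4 were picked for their large changes, and their libraries did not overlap between the groups. That was so for 85.0% of all tested genes.

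Other members of that list rose. Dag1 encodes dystroglycan, which ties the cytoskeleton to laminin and is also part of the mature fibre. It was at 236 and 240.2 CPM in Pax7_GM and at 1465 and 1536 CPM in Pax7_48 (log2 change 2.65, adjusted p 3.94e-07). Cdh15, or M-cadherin, which joins myoblasts to each other, rose from 373 and 316 CPM to 1169 and 1225 CPM. Megf10, a satellite cell receptor, was not called: its Pax7_GM libraries stood apart at 147 and 234 CPM, and its Pax7_48 libraries lay between them at 214 and 203 CPM. Peg3, an imprinted zinc finger gene, showed the same split in Pax7_GM (234 and 387 CPM, then 240.2 and 230.2 CPM). The log2 change of Megf10 was -0.16 without the deeper and 0.50 without the shallower Pax7_GM library, and that of Peg3 -0.72 and 0.005. A fit without a Pax7_GM library takes no error from that group, so only the change is given for it. Megf10 was called higher with GC and length trends removed (limma adjusted p 0.03), and Peg3 lower with quantile normalization (limma adjusted p 0.0384).

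The Id genes Id1, Id2 and Id3 and Hmga2 fell furthest within the list of myogenic factors and their regulators. Id3 stood at 652 and 514 CPM in Pax7_GM and at 17.0 and 10.5 CPM in Pax7_48. Its log2 change was -5.31 (SE 0.232, adjusted p 3.29e-07). Id1 fell from 341 and 293 CPM to 20.8 and 13.4 CPM, and Id2 from 209.7 and 281 CPM to 22.6 and 13.5 CPM. In all 3 genes the deeper Pax7_48 library was the higher of its pair, and still far under the lower Pax7_GM library. Hmga2, an architectural chromatin protein of growing cells, fell from 396 and 466 CPM to 14.8 and 16.1 CPM (log2 change -4.71).

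Myogenic factors that act later rose. Myog was already present in growth medium at 439 and 351 CPM, and reached 2491 and 2247 CPM in Pax7_48 (log2 change 2.58, SE 0.164, adjusted p 1.97e-06). Mef2c, a partner of Myog, went from 13.5 and 25.5 CPM to 164 and 151 CPM. The shallower Pax7_GM library was the higher of its pair, and both lay far below those of Pax7_48. Over the list of 30 myogenic factors and their regulators, 18 were called higher, 10 lower and 2 not, with a median of 0.85.

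Nearly every listed gene of the cell division machinery fell. Of 54 mitosis genes 36 were listed and tested, and all 36 were called lower, with a median log2 change of -4.19. Of 44 DNA replication genes 38 were listed and tested, and 37 were called lower, with a median of -3.12. Over all tested genes 40.5% were called lower. Cdc20, which activates the anaphase-promoting complex, stood at 178 and 155 CPM in Pax7_GM and at 4.70 and 4.19 CPM in Pax7_48 (log2 change -4.94). Cenpa, the histone of centromeres, fell from 129.7 and 103 CPM to 3.01 and 2.36 CPM. Kif2c, a kinesin that takes microtubules apart, had the largest mitotic change at -5.17, from 69.0 and 66.6 CPM to 1.03 and 0.786 CPM. The kinases Aurkb (-4.86) and Plk1 (-4.85), which drive chromosome segregation, were close behind. In each of these genes, which were chosen for their large changes, the 4 libraries formed 2 tight, distant pairs.

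Among the replication genes, Mcm10 and Mcm3, parts of the origin and helicase machinery, changed by -4.63 and -4.60. Mcm3 was at 239 and 203 CPM in Pax7_GM and at 8.64 and 7.59 CPM in Pax7_48. Uhrf1, which brings the maintenance DNA methyltransferase to new DNA, and the thymidine kinase Tk1 changed by -4.55 and -4.45. E2f2 was the exception of the list: this E2F transcription factor rose from 49.2 and 45.0 CPM to 175 and 185 CPM (log2 change 1.91, adjusted p 3.22e-06). Mki67, the proliferation antigen, shows the uneven growth medium libraries: it stood at 19.1 CPM in the deeper and 61.5 CPM in the shallower, against 0.658 and 1.18 CPM in Pax7_48. Its change of -4.43 therefore carries an SE of 0.47.

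The cyclin-dependent kinase inhibitors Cdkn1c and Cdkn1a went the other way. Cdkn1c, or p57, had the largest upward log2 change of all listed genes, on the scale with 1 CPM added to each mean. It stood at 17.6 and 11.2 CPM in Pax7_GM and at 1141 and 1291 CPM in Pax7_48. Its log2 change was 6.30 (SE 0.208, adjusted p 1.98e-07), 79.0-fold. Cdkn1a, or p21, was abundant from the start, at 1159.6 and 949 CPM, and rose to 4303 and 4536 CPM (log2 change 2.07). The D cyclins, which bind Cdk4 and Cdk6, split. Ccnd1 fell from 1488 and 1301 CPM to 79.96 and 72.4 CPM (log2 change -4.18), while Ccnd3 rose from 834 and 639 CPM to 1850.4 and 1976 CPM (log2 change 1.38). Cdk6 itself fell by 2.19 on the log2 scale and Myc, the growth-promoting transcription factor, by 3.39. Of this list's 18 tested members, 7 were called higher, 8 lower and 3 not, and the sign of its median, -0.32, turned with 1 Pax7_GM library left out (0.206 without the shallower).

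Most listed immediate early genes and feedback regulators fell along with the cell cycle genes. Of 26 tested immediate early genes and feedback regulators, 22 were called lower, 3 higher and 1 not, with a median of -1.61. Fosl1, a partner of Jun, stood at 188 and 163 CPM in Pax7_GM and at 7.61 and 5.50 CPM in Pax7_48 (log2 change -4.54). Nr4a2, an orphan nuclear receptor, fell from 56.0 and 72.7 CPM to 2.35 and 1.18 CPM. Etv4, an ETS factor downstream of Fgf, changed by -4.31 and the MAP kinase phosphatase Dusp4 by -3.56. Atf3, a stress-induced factor, rose from 5.28 and 4.82 CPM to 11.6 and 13.2 CPM (log2 change 1.15).

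**Figure D2:**
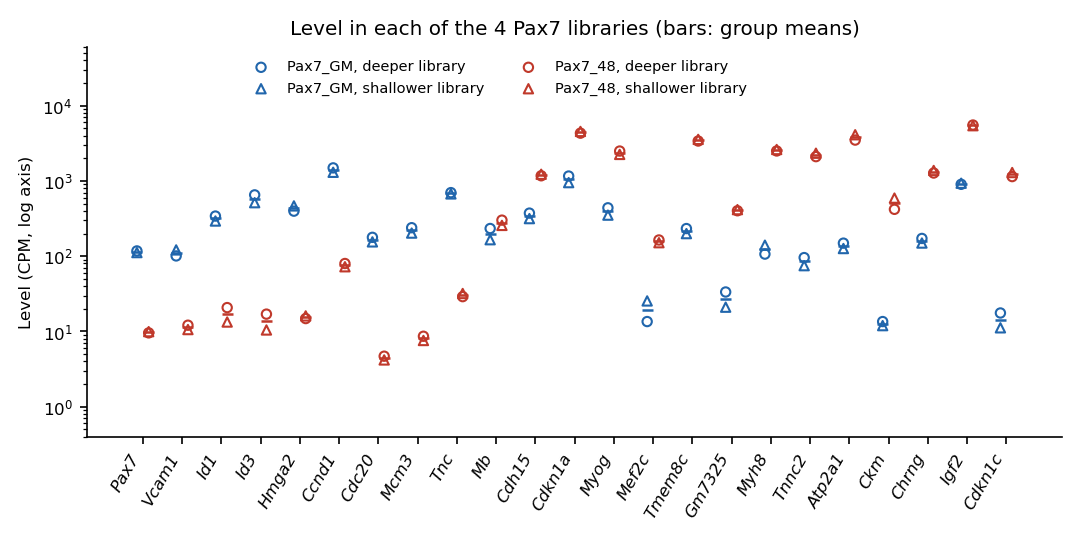
Level in CPM (log axis) of 23 named genes in each of the 4 Pax7 libraries. Blue symbols are Pax7_GM and red symbols Pax7_48, circles the deeper and triangles the shallower library, and bars the group means. The 2 groups do not overlap in any gene drawn. Mb is closest, with Pax7_GM at 233 and 166 CPM and Pax7_48 at 301 and 256 CPM.

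Genes of myofibril assembly rose, and those of fusion went both ways. Of 36 tested genes of the joint list of myoblast fusion and myofibril assembly, 27 were called higher and 9 lower, with a median of 2.79, against 38.8% of all genes called higher. Tmem8c, or myomaker, a membrane protein required for fusion, stood at 233 and 199 CPM in Pax7_GM and at 3384 and 3557 CPM in Pax7_48 (log2 change 3.999, SE 0.13, adjusted p 1.98e-07). Its partner Gm7325, or myomixer, rose from 33.5 and 21.03 CPM to 401 and 415 CPM (log2 change 3.86). Kirrel, an adhesion protein of the immunoglobulin family, fell from 292 and 277 CPM to 33.1 and 35.7 CPM (log2 change -3.01). Most of the other members called lower also belong to adhesion and signalling at fusion. They include Dock1 (-1.88), a guanine nucleotide exchange factor for Rac, Il4ra (-1.61), a subunit of the interleukin-4 receptor, and the surface receptors Boc (-1.46), Cdon (-1.06) and Neo1 (-0.89).

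Assembly factors of the sarcomere rose as much. Capn3, a muscle calpain that binds titin, went from 10.03 and 10.997 CPM to 238 and 231 CPM (log2 change 4.35). Unc45b, the chaperone of myosin, went from 35.5 and 29.9 CPM to 570.1 and 562 CPM, and Klhl40, which stabilises thin filament proteins, from 20.6 and 14.3 CPM to 282 and 295 CPM.

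All 14 tested thick filament genes were called higher, with a median of 3.53. Summed over the list, means went from 3248 CPM to 46201 CPM, 14.2 times as much. Myh8, the perinatal myosin heavy chain, stood at 107 and 140.1 CPM in Pax7_GM and at 2497 and 2610.3 CPM in Pax7_48 (log2 change 4.36). Mybph, a myosin-binding protein, rose from 267 and 214 CPM to 5156 and 5705 CPM. Myl4, the embryonic light chain, rose from 669.7 and 503 CPM to 9139 and 10015 CPM, and Myom2, an M-band protein, by 4.28 on the log2 scale. Embryonic Myh3 and the fast light chain Mylpf could not be taken apart. In the authors' deposited table the mean of Myh3 goes from 388 to 8729 CPM and that of Mylpf from 968 to 11082 CPM.

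Thin filament and Z-disc genes followed, with 26 of 28 tested members called higher and 2 lower (median 2.92). With GC and length trends removed, 1 was called lower. Tnnc2, the fast troponin C, stood at 95.8 and 74.9 CPM in Pax7_GM and at 2099.6 and 2332 CPM in Pax7_48 (log2 change 4.68). Tmod1, which caps thin filaments, rose from 14.1 and 16.2 CPM to 382 and 394 CPM, and Tnni2, the fast troponin I, from 35.5 and 29.7 CPM to 429 and 459 CPM. Ankrd2, a stretch-responsive protein of the I-band, rose from 10.7 and 9.65 CPM to 272 and 273 CPM. In the authors' deposited table the cardiac and skeletal actins Actc1 and Acta1 go from means of 664 and 1223 CPM to 12605 and 11091 CPM.

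The members that fell were Tpm3 and Ankrd1. Tpm3, a tropomyosin gene with both muscle and cytoskeletal products, fell from 368 and 344 CPM to 84.2 and 75.3 CPM (log2 change -2.14). Ankrd1, a paralog of Ankrd2 that responds to Yap signalling, was at 573 and 892 CPM in Pax7_GM and at 472 and 359 CPM in Pax7_48 (adjusted p 0.0104). The call of Ankrd1 was lost with GC and length trends removed (limma adjusted p 0.0803). Its log2 change was -0.82, and -0.63 without the shallower Pax7_48 library. Actins and myosin heavy chains are near-identical families, and the sources used here do not say how shared reads were counted, so the split within them is uncertain.

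Calcium handling showed nearly the same picture, with 21 of 22 tested excitation-contraction coupling genes called higher (median 3.00). Atp2a1, the pump that returns calcium to the sarcoplasmic reticulum in fast fibres, stood at 149 and 126 CPM in Pax7_GM and at 3484 and 4101 CPM in Pax7_48 (log2 change 4.77). Hrc, Srl and Casq2, which bind calcium inside that store, changed by 4.25, 3.98 and 3.84. Trdn, or triadin, which anchors the store's calcium-binding protein to the release channel, was near the detection limit in growth medium at 0.813 and 1.54 CPM, and stood at 30.5 and 29.7 CPM in Pax7_48. Asph was the member that fell (41.998 and 62.9 CPM, then 32.0 and 26.8 CPM). Its locus encodes junctate and junctin as well as an aspartyl hydroxylase, and a gene total does not show which.

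Genes of the neuromuscular junction and of muscle ion channels rose in 13 of 15 cases, with 1 lower and 1 not called (median 1.63). Scn4a, the sodium channel of skeletal muscle, stood at 4.20 and 3.28 CPM in Pax7_GM and at 137 and 137 CPM in Pax7_48 (log2 change 4.87). Erbb3, a neuregulin receptor, rose from 23.4 and 23.0 CPM to 348 and 314 CPM. Chrng, the subunit of the fetal acetylcholine receptor, rose from 172 and 149.5 CPM to 1272 and 1375 CPM. Agrn, the nerve- and muscle-derived protein that clusters those receptors, fell from 85.9 and 70.0 CPM to 18.7 and 20.2 CPM (log2 change -1.95).

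The gene of a muscle microRNA rose with these. Mir133b, chosen after its values were seen, was at 1.22 and 1.74 CPM in Pax7_GM and at 42.7 and 38.4 CPM in Pax7_48 (log2 change 4.07, adjusted p 2.25e-07). Reads over this gene of 119 bases do not show which product they come from. Its mature strands are shown because the seed, bases 2 to 8, in capitals, sets which messages a microRNA pairs with (RefSeq, GRCm38.p6, plus strand).
mmu-miR-133b-5p, chr1:20682797-20682818: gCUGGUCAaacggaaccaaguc
mmu-miR-133b-3p, chr1:20682834-20682855: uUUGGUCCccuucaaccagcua
The 2 strands share no seed.

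Enzymes that fuel contraction were called higher in 16 of 19 cases, with 1 lower and 2 not called (median 2.44). Ckm, the muscle creatine kinase, stood at 13.5 and 11.96 CPM in Pax7_GM and at 419 and 591 CPM in Pax7_48 (log2 change 5.202, SE 0.175, adjusted p 1.98e-07). Slc2a4, the insulin-responsive glucose transporter, rose from 4.06 and 5.79 CPM to 112 and 120.1 CPM. Pgam2, of glycolysis, rose from 57.8 and 41.3 CPM to 831 and 884 CPM, and Pygm, which breaks down glycogen, from 149 and 117 CPM to 1592 and 1824 CPM. Prkag3, the gamma subunit of AMP kinase found in glycolytic muscle, rose from 9.08 and 9.07 CPM to 313 and 319 CPM.

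Myoglobin did not follow them. Mb, which stores oxygen in muscle, was at 233 and 166 CPM in Pax7_GM and at 301 and 256 CPM in Pax7_48. The groups were adjacent without overlap, and the log2 change of 0.48 (SE 0.21) missed the threshold at an adjusted p of 0.0566. Of the alternatives that kept all 4 Pax7 libraries, it passed only with a pseudocount of 5, a trended prior, voom and size factors. Without the deeper Pax7_GM library the change was 0.75.

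**Figure D3:**
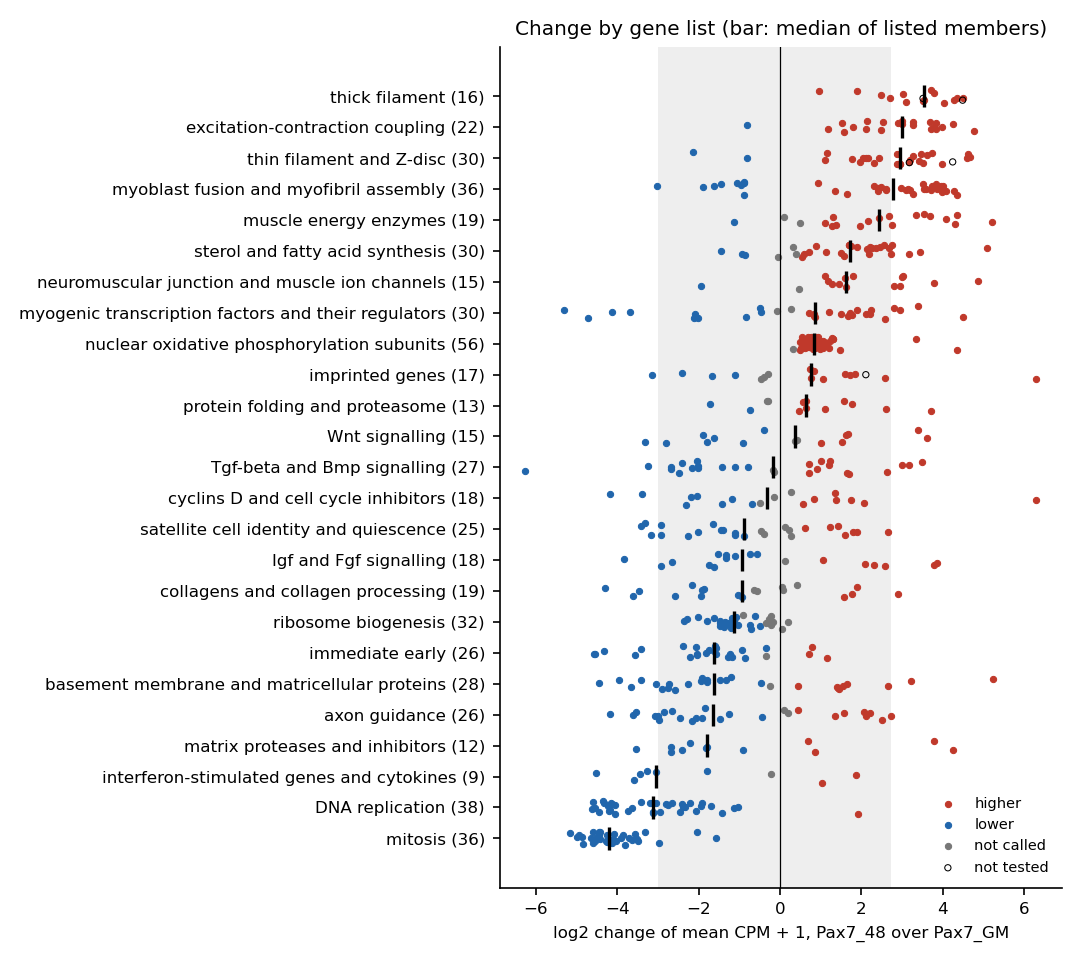
The log2 change of mean CPM + 1 from Pax7_GM to Pax7_48 (horizontal) for every listed member of 25 gene lists, with the number listed in brackets. Each point is a gene, red called higher, blue called lower, grey not called and open not tested, black bars are medians, and the shaded band runs from -2.997 to 2.73, the 5th to the 95th percentile of all listed genes. Thick filament genes lie highest and mitosis genes lowest, and oxidative phosphorylation genes form a narrow cluster above 0.

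Listed nuclear genes for oxidative phosphorylation rose together and by little. Of 79 subunits 56 were listed and tested. Of these limma called 55 higher and none lower, with a median of 0.84, and 0 were lower at an unadjusted p under 0.05 or by voom. The median ranged from 0.57 to 1.08 over 2 other scalings and a correction for GC content and length, and 38 were called higher with quantile normalization. Ndufa5, of complex I, is typical of the upper part, at 34.8 and 35.7 CPM in Pax7_GM and 99.9 and 101 CPM in Pax7_48 (log2 change 1.48). The muscle isoforms of complex IV stood apart: Cox8b changed by 4.35, from 11.4 and 6.17 CPM to 182 and 214 CPM, and Cox6a2 by 3.33, from 19.2 and 13.5 CPM to 158 and 189.6 CPM. Ndufa8 was not called, at 147 and 115 CPM, then 158 and 166 CPM. None of the mitochondrially encoded genes was among the listed genes.

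Listed ribosome biogenesis genes went mostly down. Of 48 members 32 were listed and tested, with 24 called lower, none higher and 8 not (median -1.14). At an unadjusted p under 0.05 limma gave 0 higher, and voom called 0 higher. The highest log2 change, not called, was 0.19, and the median was -0.92 without the shallower Pax7_GM library. Rcl1, of the small subunit processome, fell from 83.9 and 74.5 CPM to 15.3 and 14.1 CPM (log2 change -2.35). Utp20, of the same complex, fell from 138 and 177 CPM to 29.6 and 32.9 CPM.

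Lipid synthesis rose. In the sterol and fatty acid list 24 of 30 tested genes were called higher, 3 lower and 3 not, with a median of 1.72. Scd1 and Scd2, which put the first double bond into fatty acids, led the list. Scd1 stood at 10.3 and 14.9 CPM in Pax7_GM and at 448 and 474 CPM in Pax7_48 (log2 change 5.09), and Scd2 rose from 313 and 314 CPM to 3301 and 3578 CPM. Of the cholesterol pathway, Nsdhl changed by 3.17 and Fdps, which makes farnesyl diphosphate, by 2.76. Fads1, a desaturase of long polyunsaturated fatty acids, fell from 119.8 and 108 CPM to 40.7 and 41.6 CPM. The media named in the protocols differ in serum, and the part of serum lipid in these values was not tested.

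Protein quality control was mixed. Of 38 members 13 were listed and tested, with 9 called higher, 2 lower and 2 not. Trim63, or MuRF1, a ubiquitin ligase of the sarcomere, rose from 7.72 and 6.37 CPM to 108 and 99.8 CPM, and Cryab, the small heat shock protein of the Z-disc, from 232 and 184 CPM to 1269 and 1258 CPM. Hspd1, the mitochondrial chaperonin, fell from 155 and 207 CPM to 54.8 and 54.2 CPM. The split depended on the fit: 6 were called higher and 2 lower with the 4 Pax7 libraries alone, and likewise with quantile normalization. The median log2 change of 0.63 ran from 0.57 to 0.99 with a library left out.

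Secreted growth factors diverged. In the Igf and Fgf list 6 of 18 tested genes were called higher and 11 lower (median -0.92). Igf2, an autocrine factor of differentiating muscle, stood at 901 and 931 CPM in Pax7_GM and at 5519 and 5408 CPM in Pax7_48 (log2 change 2.58, adjusted p 5.01e-07). Fgf21, a hormone that muscle can release, rose from 10.4 and 7.91 CPM to 150.2 and 144 CPM. Ligands of the EGF receptor fell: Areg went from 23.0 and 18.9 CPM to 0.282 and 0.786 CPM, and Hbegf from 95.9 and 86.6 CPM to 14.1 and 13.4 CPM.

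In the Tgf-beta and Bmp list 12 genes were called higher, 13 lower and 2 not of 27 tested, so the list had no common direction (median -0.18, 0.08 with size factors). Chrd, or chordin, a Bmp antagonist, rose from 6.23 and 5.98 CPM to 76.2 and 80.3 CPM. Tgfb3 rose from 49.3 and 46.7 CPM to 441 and 432 CPM, and Mstn, or myostatin, which restrains muscle growth, from 5.55 and 5.59 CPM to 42.6 and 37.3 CPM. Smad7, an inhibitor of the pathway inside the cell, changed by -3.24.

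Wnt genes also went both ways, 6 higher, 7 lower and 2 not called of 15 tested, with a median of 0.37 that turned to -0.22 with GC and length trends removed. Fzd9, a receptor, and Wnt4, a ligand, changed by 3.62 and 3.40. Wnt4 was at 1.63 and 0.965 CPM in Pax7_GM and at 24.1 and 22.3 CPM in Pax7_48. Wnt5a fell from 24.9 and 33.4 CPM to 2.91 and 3.67 CPM, and the transcription factor Lef1 from 50.3 and 51.9 CPM to 5.17 and 3.27 CPM.

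More listed extracellular matrix genes were called lower than higher. Of 28 tested basement membrane and matricellular genes 18 were called lower, 9 higher and 1 not (median -1.63), and of 19 collagen genes 10 lower, 4 higher and 5 not (median -0.94). The shares called lower were 64.3% and 52.6%, against 40.5% of all tested genes. Tnc, or tenascin C, of regenerating muscle, stood at 698 and 672 CPM in Pax7_GM and at 29.0 and 31.9 CPM in Pax7_48 (log2 change -4.45). Fn1, or fibronectin, fell from 2179.7 and 2210.1 CPM to 248 and 279.9 CPM, and Lamb1, a laminin chain, from 579 and 630.3 CPM to 46.3 and 46.7 CPM. Col18a1, whose end fragment is endostatin, fell from 1103 and 937 CPM to 81.3 and 83.5 CPM. Mfap4, a protein of elastic fibres, was the largest rise of these lists, from 2.30 and 1.54 CPM to 102 and 116 CPM (log2 change 5.24), and the membrane collagen Col25a1 rose by 2.90 on the log2 scale.

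Among 12 tested proteases and inhibitors of the matrix, 8 were called lower and 4 higher (median -1.81). Serpine2, an inhibitor of thrombin and of plasminogen activators, changed by -3.54. Adamts1, a protease of proteoglycans, rose from 1.76 and 2.70 CPM to 57.2 and 64.0 CPM (log2 change 4.25). Of 26 tested axon guidance genes, 16 were called lower, 8 higher and 2 not (median -1.66). Unc5b, a netrin receptor, fell from 821 and 729 CPM to 41.1 and 43.1 CPM, and Epha2, an ephrin receptor, from 462 and 407 CPM to 34.5 and 34.4 CPM. Sema3b rose from 11.1 and 10.997 CPM to 76.4 and 80.8 CPM.

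Imprinted genes, which are read from the copy of a single parent, had no common direction. Of 16 tested, 9 were called higher, 4 lower and 3 not (median 0.75). Besides Cdkn1c and Igf2, Peg10 rose from 41.5 and 46.1 CPM to 163 and 159 CPM. Within the Dlk1-Meg3 domain, Meg3 rose from 18.3 and 32.2 CPM to 86.9 and 71.4 CPM, while Dlk1 fell from 29.9 and 20.8 CPM to 2.82 and 1.18 CPM. Plagl1, a zinc finger factor, fell by 2.40 on the log2 scale. H19, a long noncoding RNA, goes from a mean of 7045 to 30416 CPM in the authors' deposited table and held 3.04% of the Pax7_48 library.

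Several of the most changed genes sit outside the muscle lists. Ctrb1, a chymotrypsinogen known from the pancreas, stood at 0.677 and 0.965 CPM in Pax7_GM and at 109 and 111 CPM in Pax7_48 (log2 change 5.93). Ptgds, which makes prostaglandin D, had 0 and 1 read in Pax7_GM and 352 and 336 reads in Pax7_48 (log2 change 5.17). With the reads of each group pooled and scaled by its summed library sizes, the ratio was 473. Its 95% counting interval ran from 84.6 to 1.87e+04. Pgm5, a cell junction protein related to phosphoglucomutase, C1qtnf3, a secreted C1q-like protein, Camk2a, a calcium-dependent kinase, and Best1, a chloride channel, changed by 5.198, 4.64, 4.61 and 4.60. In each the 2 groups were far apart, which follows from how these genes were chosen.

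The genes that fell furthest included receptors and secreted signals. Sct, the hormone secretin, stood at 213 and 148 CPM in Pax7_GM and at 2.16 and 1.57 CPM in Pax7_48 (log2 change -5.99). Adcyap1r1, the receptor of the related peptide PACAP, fell from 224 and 223 CPM to 3.29 and 3.01 CPM. Lgr6, a receptor of R-spondins, fell from 207 and 203 CPM to 3.76 and 3.01 CPM. Selp, or P-selectin, known from platelets and endothelium, fell from 56.9 and 60.2 CPM to 1 and 3 reads. Acsbg1, an acyl-CoA synthetase, Smoc2, a matricellular protein, Gpr97, an adhesion receptor, and Arl4c, a small GTPase, changed by -5.86, -4.96, -4.93 and -4.86.

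Most listed cytokine genes fell too. Of 41 interferon-stimulated genes and cytokines 9 were listed and tested, with 6 called lower, 2 higher and 1 not (median -3.06). Cxcl12, the ligand of Cxcr4, stood at 442 and 425 CPM in Pax7_GM and at 18.6 and 17.2 CPM in Pax7_48 (log2 change -4.53). Csf1, a growth factor of macrophages, fell from 839 and 779.8 CPM to 80.1 and 68.0 CPM, and Ptgs1, a cyclooxygenase, from 189 and 178 CPM to 13.2 and 15.6 CPM. Stat2, of interferon signalling, rose from 10.7 and 10.2 CPM to 40.0 and 42.3 CPM.

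Markers of other cell types were present at levels that moved in both directions. The 7 listed of 19 fibroblast and fibro-adipogenic progenitor markers summed to 1165 and 1133 CPM in Pax7_GM and to 867 and 885 CPM in Pax7_48, with 2 called higher, 2 lower and 3 not (4 lower with voom on the recovered reads). Of these, Col3a1 fell from 462 and 477 CPM to 124 and 119 CPM, and Col1a2 was not called (424 and 387 CPM, then 270.2 and 246 CPM, limma adjusted p 0.201). Col1a2 was called lower in a fit of the 4 Pax7 libraries alone (limma adjusted p 0.0182), with voom (0.0421) and with quantile normalization (0.0442). The 9 listed of 13 pericyte and smooth muscle markers summed to 2462 and 1971 CPM and then to 10023 and 10560 CPM, with 4 called higher, 4 lower and 1 not. That sum is mostly Acta2 (769 and 659 CPM, then 5139 and 5421 CPM) and Des, which developing muscle also expresses. Rgs5, which defines pericytes, had 84 and 98 reads in Pax7_GM and 0 in either Pax7_48 library, at least 29.0-fold lower (the lower Pax7_GM library over the larger 3-read limit of a Pax7_48 library), while Abcc9 rose from 3.52 and 5.98 CPM to 102 and 109 CPM.

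Each remaining marker list had few listed members. Eng, the sole listed endothelial marker of 12, summed to 13.8 and 9.45 CPM, then 10.5 and 10.3 CPM. Itgam, the sole listed immune marker of 14, rose from 0.542 and 0.579 CPM to 15.9 and 11.9 CPM. The 2 bone and cartilage markers of 11, Sox9 and Runx2, changed by -1.80 and -2.33, from sums of 131 and 144 CPM to 31.8 and 31.8 CPM. Of 9 tenocyte markers, Scx rose (110.1 and 91.4 CPM, then 348 and 319.6 CPM). The other listed, the immediate early gene Egr1, was called lower (log2 change -0.94). The 2 of 12 adipocyte markers were Scd1, called higher (log2 change 5.09), and Car3, called lower (-1.14). The 1 of 12 Schwann cell markers was Ncam1, called higher (1.61). Muscle cells also express Scd1, Car3 and Ncam1. None of these lists had a member at 0 other than Rgs5 in Pax7_48. Every gene taken apart reached 10 CPM in at least 4 libraries of the series, so this does not describe the unlisted markers. The part of other cell types in the results was not tested.

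The change in the Twist2 lineage, from Tw2_GM to Tw2_48, shares no library with that in the Pax7 lineage. Across genes the log2 changes correlated at Pearson's r 0.948 and Spearman's rho 0.951, a description of genes that are not independent replicates and that the table selects by their distance from Tw2_GM. The change itself differed between the lineages, by the interaction term of the same limma fit, in 1021 of 5452 genes (18.7%). The absolute change was smaller in the Pax7 lineage in 895 of these. Myog and Mb show it: Myog changed by 2.58 in Pax7 cells and by 5.23 in Tw2 cells, and Mb by 0.48 and 5.05. The count of 1021 rose without either Pax7_GM library and fell without either Pax7_48 library. Such a fit takes no error from the group left with 1 library, so no conclusion is drawn from its count.

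**Figure D4:**
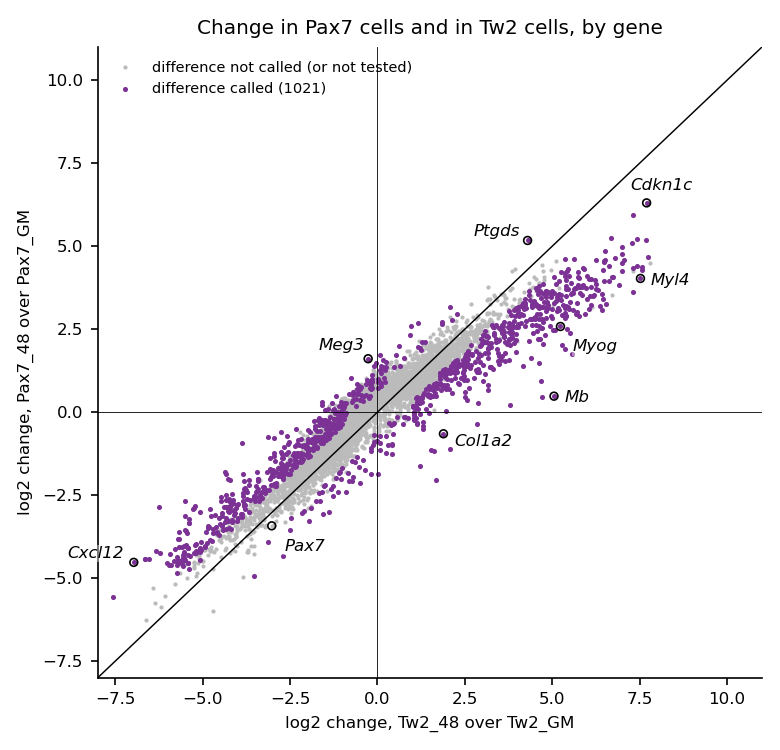
The log2 change of mean CPM + 1 of each listed gene from Tw2_GM to Tw2_48 (horizontal) and from Pax7_GM to Pax7_48 (vertical). Purple points are the 1021 genes whose change differed between the lineages at an adjusted p under 0.05, grey points the others, and the diagonal marks equal change. Most purple points lie closer to 0 on the vertical than on the horizontal axis, and circles mark 9 named genes.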

How the data were processed

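RNA was sequenced from 8 libraries of sorted, cultured cells in 4 groups of 2, named from their titles. Tools named by the submitters are DESeq2 1.6.3 and TopHat2 2.0.0, and the build is GRCm38 (mm10), per the submitters' processing notes, which give no roles. The counting tool and annotation are not given in the sources used here. The authors deposited 1 table with a mean CPM for every group, per the file headers, and 3 columns of log2 fold change whose reference is Tw2_GM. The log2 columns served only to describe how genes were selected. Every gene listed is at least 2-fold from Tw2_GM in at least 1 group, and every gene taken apart reached 10 CPM in at least 4 libraries.

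A mean of 2 libraries is a whole number of reads times the CPM of 1 read, added over both, so each mean was searched for the whole reads that give it. This was tested on simulated means. It had a single answer in every group for 5452 genes, and H19, Myh3, Mylpf, Acta1 and Actc1 were not tested. Library sizes were 5.18 to 13.7 M reads. Because the unit is CPM, limma 3.58.1 in R 4.3.3 was run on log2(CPM + 1), a pseudocount of 1, with 1 mean per group over all 8 libraries (4 residual and 4.0 prior degrees of freedom), and p-values were adjusted over 5452 genes. Printed changes are ratios of means; limma's own estimate differed by 0.00865 at the median and 0.36 at most. The pooled error understates a group that spreads more, as Pax7_GM did.

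The comparison and the 34 gene lists were chosen with earlier results of these data known. Genes named are Pax7, the 15 largest changes in each direction among genes that were called and had libraries not overlapping between the groups (without predicted models), and from each list up to 5 called members with the largest change and up to 3 not called. Dag1, Cdh15, Myog, Mef2c, Gm7325, Kirrel, Tpm3, Ankrd1, Asph, Agrn, E2f2, Mki67, Cdkn1a, Ccnd3, Atf3, Mstn, Fn1, Sema3b, Meg3, Fads1, Stat2, Dock1, Il4ra, Boc, Cdon, Neo1, Des, Jsrp1 and Mir133b fall outside that rule and were chosen after their values were seen. A gene that the rule names is not reported here. Alternatives were 2 other pseudocounts, a 10 CPM filter, a fit of the 4 Pax7 libraries, a trended prior, voom on the recovered reads, 2 scalings, removal of GC and length trends, and leaving out each library.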

Additional observations from a re-analysis of the deposited data

Results flagged for a closer look

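The log2 change from growth medium to 48 differed between the Pax7 and Tw2 lineages in 1021 of 5452 genes, and in 85 of the genes named above, by the interaction term of the limma fit (adjusted p from 0.000131 to 0.0485 among the 85). The number in brackets after each gene below is the change in Pax7 cells minus that in Tw2 cells. In 80 of the 85 the absolute change was the smaller in Pax7 cells, and in 5 (Ptgds, Gpr97, Serpine2, Meg3 and Sox9) the larger. The 2 changes have no library in common, but genes are listed by their distance from Tw2_GM. That selection can favour larger changes in Tw2 cells. No explanation was tested.

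Among the 85, the members of the muscle lists that rose did so less in Pax7 cells than in Tw2 cells. The myogenic factors and the factors of fusion and assembly were Myog (-2.65), Mef2c (-1.71), Capn3 (-2.955), Unc45b (-2.68), Tmem8c (-2.12), Gm7325 (-2.39), Klhl40 (-1.415), Trim63 (-1.93) and Cryab (-1.395). The filament and Z-disc genes were Mybph (-2.51), Myh8 (-3.20), Myom2 (-2.19), Myl4 (-3.50), Tnnc2 (-3.04), Tmod1 (-2.46), Tnni2 (-2.25), Ankrd2 (-0.76) and Acta2 (-1.06). The calcium, channel and junction genes were Atp2a1 (-2.23), Hrc (-2.74), Srl (-2.23), Casq2 (-3.06), Trdn (-1.895), Scn4a (-1.64), Erbb3 (-2.004) and Chrng (-0.72). The metabolic genes were Mb (-4.57), Ckm (-2.22), Pygm (-2.63), Pgam2 (-2.62), Slc2a4 (-1.14), Cox8b (-1.52) and Cox6a2 (-2.175). Some other muscle genes had the larger rise in Pax7 cells, with a difference that did not pass the test, such as Des (1.97 and 1.85, limma adjusted p 0.691) and Jsrp1 (2.47 and 2.03, limma adjusted p 0.209). A smaller change is not always a lower level. Mean levels of Atp2a1 went from 138 to 3792 CPM in Pax7 cells and from 18.5 to 2508 CPM in Tw2 cells. Those of Ckm went from 12.8 to 505 CPM in Pax7 cells and from 5.67 to 1139 CPM in Tw2 cells.

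Genes with downward changes mostly had smaller ones in Pax7 cells. The cell cycle genes were Ccnd1 (2.15), Mki67 (2.215), Cdk6 (1.48), Mcm3 (1.30), Tk1 (1.05), Aurkb (0.87) and Hmga2 (0.67). The satellite cell, adhesion and signalling genes were Cxcl12 (2.445), Selp (1.995), Met (1.86), Csf1 (1.42), Fosl1 (1.48), Vcam1 (1.15), Etv4 (1.104), Epha2 (0.98), Areg (0.94), Dusp4 (0.86), Sdc3 (0.84), Kirrel (0.65) and Neo1 (0.72). Rgs5 (1.45), Pcolce2 (1.255), Plagl1 (1.06) and Runx2 (0.76) followed the same pattern. Gpr97, Serpine2 and Sox9 fell further in Pax7 cells, at -1.39, -1.05 and -0.73.

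The inhibitors Cdkn1c (-1.395) and Cdkn1a (-1.14), the secreted and signalling genes Ctrb1 (-1.39), Mfap4 (-1.43), C1qtnf3 (-2.15), Igf2 (-0.75), Fgf21 (-0.87), Chrd (-1.35), Tgfb3 (-0.85), Mstn (-1.77), Fzd9 (-1.265), Wnt4 (-1.775) and Col25a1 (-2.86), the markers Itgam (-1.17), Scx (-1.24) and Abcc9 (-1.05), and Pgm5 (-2.48), Camk2a (-1.005), Best1 (-1.65), Prkag3 (-2.01), Scd1 (-2.185) and Nsdhl (-0.98) rose less in Pax7 cells. Ptgds rose more (0.88). Col1a2 and Meg3 had opposite signs in the lineages. Col1a2 changed by -0.65 in Pax7 cells and 1.89 in Tw2 cells (difference -2.54), and Meg3 by 1.61 and -0.27 (difference 1.88).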

How the results depend on the processing

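No paired analysis was possible because the deposited means carry no replicate numbers, so libraries of different groups cannot be matched. The counts of 2113 genes called higher and 2207 lower stayed within 1.5 times in all 13 alternatives, and 3656 of 4320 calls kept their sign and call under 8 alternatives (the Pax7-only fit, the 2 scalings, the GC and length correction and the 4 fits without a library), as did 2791 of the 2832 calls of at least 2-fold (98.6%). The share of calls that were higher was 48.9%, and 54.6% with size factors. That share was lower without the deeper and higher without the shallower Pax7_GM library. Of 148 named genes tested, 142 kept direction and call in all 13. Most were named for being called with the largest changes, so this says little about other genes. The 4 fits without a library, counted in these checks, take no error from the group left with 1 library. For that reason no conclusion is drawn from their counts of genes whose change differed between the lineages. The number of genes whose change differed between the lineages, 1021, was 1827 with GC and length trends removed and ran from 476 to 3153 with a library left out. The median of all genes, -0.02, was 0.218 with size factors, 0.122 with quantile normalization, and -0.283 to 0.257 with a library left out. Of 27 list medians, 24 kept their sign in all 13. The others were the cyclin and inhibitor list (-0.539 to 0.206 with a library left out), the Tgf-beta and Bmp list (0.077 with size factors) and the Wnt list (-0.221 with GC and length trends removed). Megf10 was at -0.202 with quantile normalization and at -0.162 to 0.499 with a library left out, Peg3 at -0.716 to 0.005, and Ndufa8 at -0.139 with GC and length trends removed. The causes were not tested. Depth limits genes near the 3-read floor, such as Ptgds in Pax7_GM and Rgs5, Selp and Gpr97 in Pax7_48.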
